A study of Homo sapiens with 4 samples.

Results

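In an iCLIP study of the RNA helicase MOV10, some of the RNA regions listed from the deposited reads lay close together along one strand. Among the 1181 regions listed for both experiments, 267 (22.6%) had a same-strand neighbour within 5000 nt, counted from the end of one region to the start of the next. They formed 104 loci, 47 on the plus strand and 57 on the minus strand, and the other 914 regions were isolated by the same rule. The rule used position and strand and no read number.

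MOV10 belongs to the UPF1-like family of helicases and moves along RNA in the 5' to 3' direction. It is known to bind 3' untranslated regions of messenger RNAs and to associate with Argonaute proteins, which carry microRNAs. In iCLIP, UV light links a protein to the RNA it touches, the complex is pulled down, and short cDNA copies of the bound RNA are sequenced. Several separate regions in 1 transcript then mean several places at which RNA was recovered.

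The samples were HEK293F cells, a human embryonic kidney line grown in suspension, UV-cross-linked and with no further treatment given in the labels. There were 4 libraries, a pull-down with a MOV10 antibody and a control pull-down with an antibody to zebra finch FMRP in each of 2 experiments, so 2 libraries a group. The labels tie the deposited reads of an experiment (4021 in experiment 1 and 6032 in experiment 2) to both of its pull-downs. MOV10 was therefore not compared with control, no region is described as enriched, and each value below holds for an experiment. The experiments are replicates, and nothing in the labels says whether they came from separate cultures. A read here is a line of the deposited lists, and a distinct fragment is a set of reads with the same ends counted once. Reads and fragments of this list do not give library depth, and all intervals are 95% exact Clopper-Pearson intervals that cover counting error alone.

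Positions are 1-based on hg19. The annotation at hand is of GRCh38, so none of its coordinates were used. Likely genes were assigned from general knowledge of hg19 and are labels rather than results, without exon or UTR assignments. Names were given to 86 loci in 83 genes, and 18 loci stay unnamed. In GENCODE release 29, all 86 names lay on the stated chromosome and strand, all 86 genes were at least as long as their locus, and the 60 pairs of neighbouring loci with different names stood in the same order along the chromosome, with 0 in another order. FASN, MBD3 and XIST each held 2 loci more than 5000 nt apart.

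The first question was how the regions were spaced. The 163 gaps inside loci had a median of 633 nt (interquartile range 203.5 to 1482.5, range 12 to 4655). Gaps of 100 nt or less made up 26 of the 163 (16%), and 102 (62.6%) were 1000 nt or less. The closest neighbours lay 12 nt apart, on chromosome 12 at 4412471 to 4412508 and 4412521 to 4412603 in CCND2, the cyclin D2 gene, and on chromosome 8 at 70602300 to 70602430 and 70602443 to 70602488. The next pair, 15 nt apart, lay on chromosome 9 at 138774671 to 138774750 and 138774766 to 138774822 in CAMSAP1, which binds microtubule minus ends. The widest gap still joined, 4655 nt, lay in AHCY on chromosome 20 (32868555 to 32868590 and 32873246 to 32873289, with 1 and 2 reads and 1 and 1 reads in experiments 1 and 2). The nearest pair left apart, on the minus strand of chromosome 7 at 139251046 to 139251083 and 139256108 to 139256166, had a gap of 5024 nt and held 6 and 2 reads and 4 and 1 reads.

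Neighbours within that distance were all on the same strand. Of the 470 pairs of neighbouring regions on opposite strands, 0 lay within 5000 nt, and 1 lay within 10000 nt, at 9688 nt. Among 687 neighbours on the same strand, 172 lay within 10000 nt. Strand therefore made no difference to which regions were joined.

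**Figure D1:**
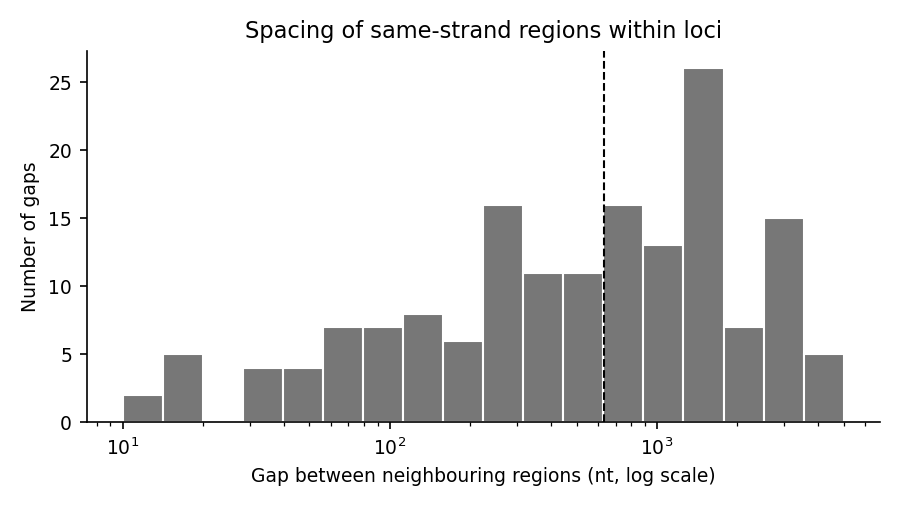
Number of gaps (vertical axis) by gap length in nt on a log scale (horizontal axis) for the 163 gaps between neighbouring regions of a locus. The dashed line is the median of 633 nt, and gaps ran from 12 to 4655 nt.

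Most loci were pairs. There were 78 loci of 2 regions, 14 of 3, and 12 of 4 or more, the last holding 69 regions. Locus length, from the first to the last base, had a median of 1137.5 nt (range 98 to 10296), and 47 loci were under 1000 nt long. Regions themselves covered 13445 nt in all. Chromosome 17 held 15 loci and 43 of the clustered regions, which was 33.9% of its 127 regions. On chromosome 12 the share was 31.5% of 73 regions, on chromosome 19 it was 13.8% of 87, on chromosome 7 it was 10.5% of 57, and chromosome 18 had 0 clustered among 14 regions.

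The locus with most regions, 11 in 10296 nt, was that in XIST (minus strand of chromosome X, 73061974 to 73072269), the long noncoding RNA that coats the inactive X chromosome. Experiment 1 gave 45 reads there and experiment 2 gave 364, from 24 distinct fragments in each, and by fragments its share did not pass the test (Fisher's exact test, adjusted p = 1). In experiment 1 the leading region was that from 73062081 to 73062174, with 13 reads against 1 in experiment 2. In experiment 2 the region at 73064448 to 73064476 held 236 reads, against 2 in experiment 1, and that at 73067600 to 73067636 held 119, against 1. The other 9 regions of the locus each held 1 read in experiment 2 and 1 to 13 in experiment 1. Thus experiment 1 spread over the locus while most reads of experiment 2 lay in a pair of regions, which held 10 and 5 of its fragments, at median mapping qualities of 31 and 14. Mapping quality is read here from the deposited score, whose highest value is 70. A second XIST locus, from 73046548 to 73051016, held 4 and 2 reads in its 2 regions.

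The next largest locus was IGF2BP1, with 10 regions (plus strand of chromosome 17, 47127232 to 47133445). IGF2BP1 encodes an RNA-binding protein that stabilises bound messenger RNAs. The locus held 101 reads in experiment 1 and 23 in experiment 2, from 43 and 16 distinct fragments, and the median mapping quality was 70 in both. Its gaps ran from 104 to 1435 nt. The leading region of experiment 1, from 47130426 to 47130529, held 34 and 2 reads, and that of experiment 2, from 47131109 to 47131202, held 22 and 10. The region from 47131979 to 47132071 followed with 15 and 3 reads. Each of the other 7 regions held 1 to 8 reads in experiment 1 and 1 or 2 in experiment 2, so experiment 1 was at least as high in all 10.

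A locus of 7 regions (plus strand of chromosome 16, 586341 to 596052) lay in CAPN15, a calpain-family protease gene. It held 31 and 28 reads from 17 and 15 fragments. The region from 588679 to 588770 held 16 and 13 of these reads, from 8 fragments in each experiment, and the other 6 regions held 1 to 6 reads in either. Another locus of 7 regions (plus strand of chromosome 3, 38525914 to 38532956) lay in ACVR2B, which encodes an activin receptor. Its regions held 16 and 13 reads in all, and no region exceeded 5 reads in either experiment. In these loci the experiments gave like read totals, from lists of unlike size. Shares of all reads in experiments 1 and 2 were 0.771% and 0.464% in CAPN15, and 0.398% and 0.216% in ACVR2B. Neither difference passed the test of shares given below (Fisher's exact test, adjusted p = 0.509 and 0.646), which does not show equal shares.

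**Figure D2:**
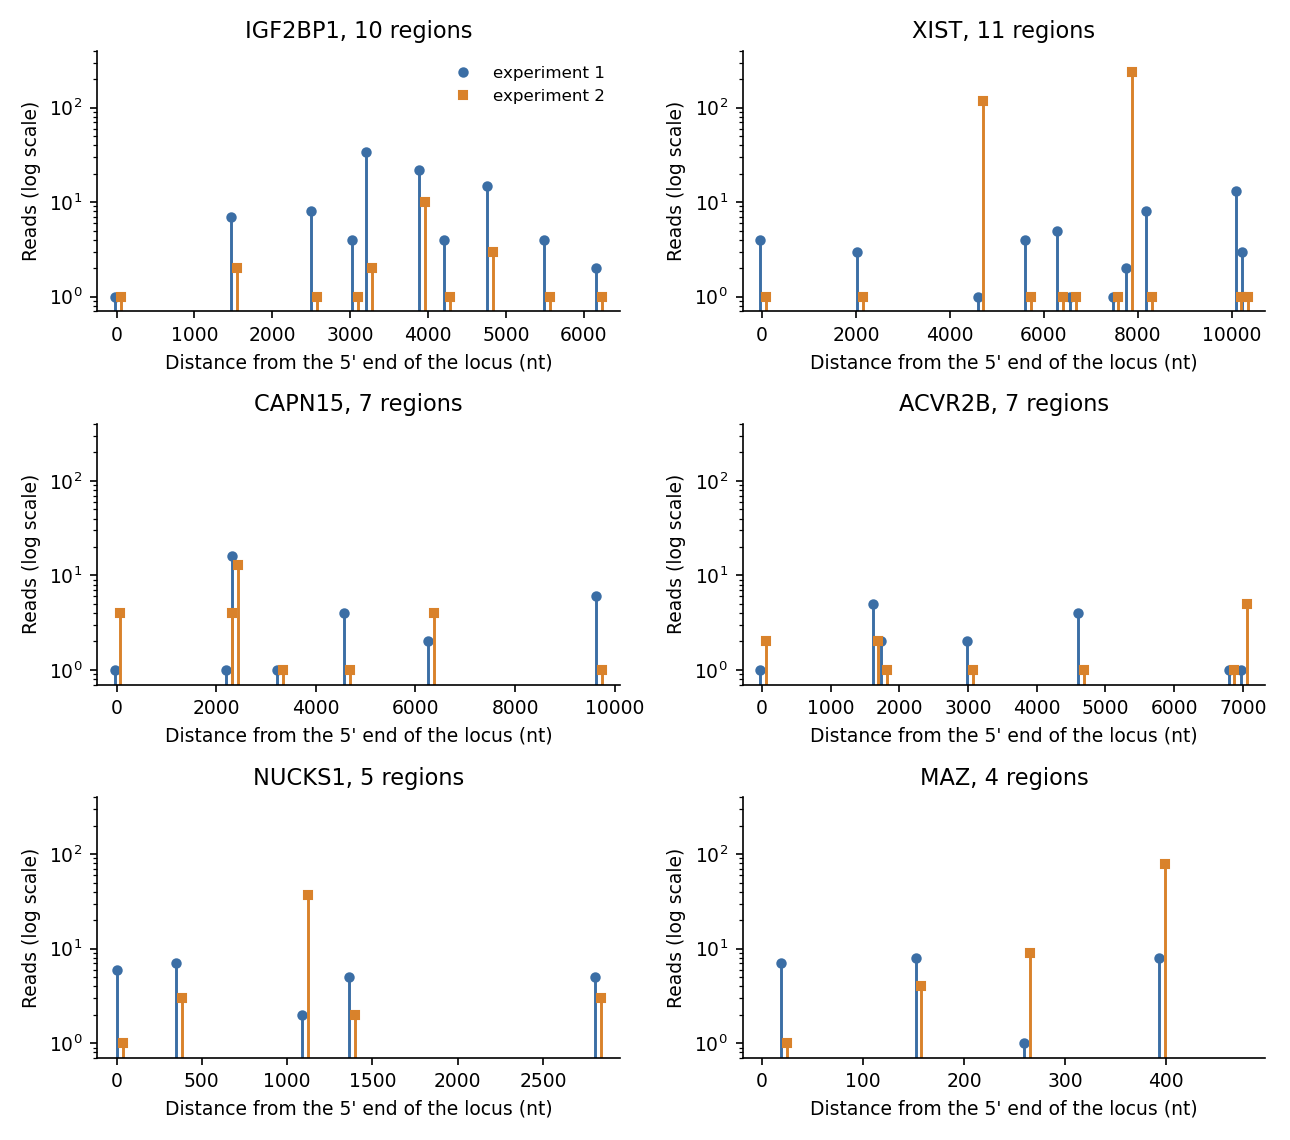
Reads of each region (vertical axis, log scale) against the distance of the region's middle from the 5' end of the locus in nt (horizontal axis), in experiment 1 (circles) and experiment 2 (squares), for 6 loci. IGF2BP1 had more reads in experiment 1, and CAPN15 and ACVR2B had like read totals, not adjusted for the size of the lists. In XIST, NUCKS1 and MAZ single regions rose high in experiment 2, to 236, 37 and 78 reads.

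Loci of 5 regions were NUCKS1 and an unnamed one. NUCKS1, a chromatin-associated phosphoprotein gene on the minus strand of chromosome 1 (205682902 to 205685737), held 25 and 46 reads. Of these, 2 and 37 lay in the region from 205684613 to 205684657, whose median mapping quality in experiment 2 was 9, and the other 4 regions held 23 and 9. The unnamed locus (minus strand of chromosome 12, 49327071 to 49331832) held 22 and 7 reads, with 3 to 6 per region in experiment 1 and 1 or 2 in experiment 2.

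Loci of 4 regions ranged from compact to spread out. MAZ, a zinc-finger transcription factor gene, had its 4 regions within 479 nt (plus strand of chromosome 16, 29821786 to 29822264), with gaps of 62, 40 and 34 nt. It held 24 and 92 reads, of which 8 and 78 lay in the last region, whose median mapping quality was 70 and 9. VAT1, a vesicle membrane protein gene on the minus strand of chromosome 17 (41167020 to 41167505), had gaps of 19, 72 and 127 nt and held 25 and 7 reads. HMGA1, which encodes a chromatin architecture protein, held 20 and 6 reads on chromosome 6 (34212946 to 34213959), 16 and 3 of them in its first region. LARP1, a regulator of the translation of ribosomal protein messenger RNAs, held 10 and 4 reads on chromosome 5 (154194322 to 154195142). CCND2 on chromosome 12 (4412471 to 4414123) held 10 and 52 reads, 2 and 45 of them in the region from 4413393 to 4413442. The last, unnamed, on the minus strand of chromosome 17 (79841653 to 79844038), held 11 and 195 reads, 2 and 189 of them in the region from 79842437 to 79842491.

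Likely genes of some loci fell into several functional groups, which were formed after the loci had been seen. Of the 86 named loci, 47 with 111 regions were put in none of these groups, and 18 loci had no name. Genes of RNA binding, decay and translation made up 8 loci with 29 regions, 163 reads in experiment 1 and 283 in experiment 2. Of 26 listed genes for RNA silencing and decay proteins, AGO1 and DDX6 (2 genes) held a clustered locus, and of 20 listed RNA-binding proteins, IGF2BP1 did (1 gene). Isolated regions were not assigned to genes, so these counts have no background. AGO1, an Argonaute protein, had 3 regions on chromosome 1 (36386923 to 36389760), with 2, 1 and 3 reads in experiment 1 and 1, 2 and 3 in experiment 2. DDX6, a helicase of messenger RNA decay and microRNA silencing, had 2 regions on chromosome 11 (118618959 to 118620209), with 4 and 7 reads in experiment 1 and 1 and 5 in experiment 2. EEF2, the elongation factor that moves the ribosome along, held 20 reads in each experiment over 3 regions on chromosome 19 (3976177 to 3977598). ZC3H7B, a zinc-finger RNA-binding protein gene on chromosome 22 (41754286 to 41755424), was the most uneven of the group, with 4 reads in experiment 1 and 218 in experiment 2.

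Genes for chromatin proteins and transcription factors made up 19 loci with 47 regions and held 171 and 229 reads. Experiment 1 had more reads in 10 of these loci and experiment 2 in 7. MBD3, a subunit of the NuRD chromatin remodelling complex, had 2 loci on chromosome 19, from 1576759 to 1577275 with 11 and 4 reads and from 1585561 to 1588017 with 14 and 12. SMARCC1, a SWI/SNF subunit, held 9 and 12 reads in 2 regions on chromosome 3 (47627933 to 47629031). NSD2, a histone H3 lysine methyltransferase, held 8 and 5 reads in 3 regions on chromosome 4 (1977046 to 1982520). None of the 4 loci of these 3 genes passed the test of shares given below (Fisher's exact test, lowest adjusted p = 0.241). Of all 19 loci of the group, 2 passed it, against 20 of all 104 clustered loci (19.2%) and 4.13% of all loci of the list. MAZ was higher in experiment 2 (Fisher's exact test, adjusted p = 0.000515) and HMGA1 in experiment 1 (Fisher's exact test, adjusted p = 0.00516). The test of balance within loci, also given below, called 3 of the 19, against 15 of all 104 clustered loci (14.4%). Whether the group differs from these shares was not tested.

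Genes of lipid metabolism made up 5 loci. SCAP, the escort protein of the sterol-sensing SREBP factors, held 15 and 189 reads in 3 regions on chromosome 3 (47465426 to 47469160). STARD7, a lipid transfer protein, held 23 and 11 reads in 3 regions on chromosome 2 (96850685 to 96851279). FASN, the fatty acid synthase, had 2 loci on chromosome 17, from 80036746 to 80040192 with 3 reads in each experiment and from 80050220 to 80051973 with 3 and 7. Noncoding RNAs held 4 loci, among them RMRP, the RNA of the mitochondrial RNA processing ribonuclease, with 15 and 2 reads on chromosome 9 (35657748 to 35657970).

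A further 3 loci lay in genes with segments like ribosomal RNA. Unnamed loci were not sorted into any group, so this number covers named loci only. SLCO5A1 on chromosome 8 (70602300 to 70602616) held 36 and 548 reads at median mapping qualities of 26 and 29. ANKRD30BL on chromosome 2 (133012586 to 133014598) held 81 and 12 reads at 25 and 23. RNA5-8SP6, a ribosomal RNA pseudogene, held 13 and 45 reads on chromosome Y (10037759 to 10037885) at 36 and 37. These qualities were below the 70 of IGF2BP1, and the part of multiple alignment in these counts was not tested.

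The second question was how clustered regions compared with isolated ones. These comparisons are descriptions without a test, since neighbouring regions share a transcript and are not independent. Median width was 45 nt in clustered regions (quartiles 32.5 and 61.5) and 37 nt in isolated ones (quartiles 29 and 49). Distinct fragments had a median length of 36 nt in clustered regions in both experiments, and of 35 and 34 nt in isolated ones. More clustered regions rested on several fragments. At least 2 distinct fragments were found in 39.3% of clustered regions in experiment 1 (interval 33.4 to 45.5) and in 20.7% of isolated ones (18.1 to 23.5). In experiment 2 these shares were 21% (16.2 to 26.4) and 10.4% (8.49 to 12.6). A single fragment in each experiment was all that 51.7% of clustered and 72.4% of isolated regions held. Clustered regions held 27.9% of the reads of experiment 1 and 41.8% of those of experiment 2, but 30.2% and 30.1% of distinct fragments. The clustered share thus differed between experiments in reads, and was about the same in fragments. Few regions held many reads. In experiment 2 the median was 1 read in both clustered and isolated regions, and the highest count in a region was 539 and 278.

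Median mapping quality was under 30 in 10.9% of clustered and 13% of isolated regions in experiment 1, and in 13.1% and 12.6% in experiment 2. The counting intervals of clustered and isolated regions overlapped in each experiment.

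**Figure D3:**
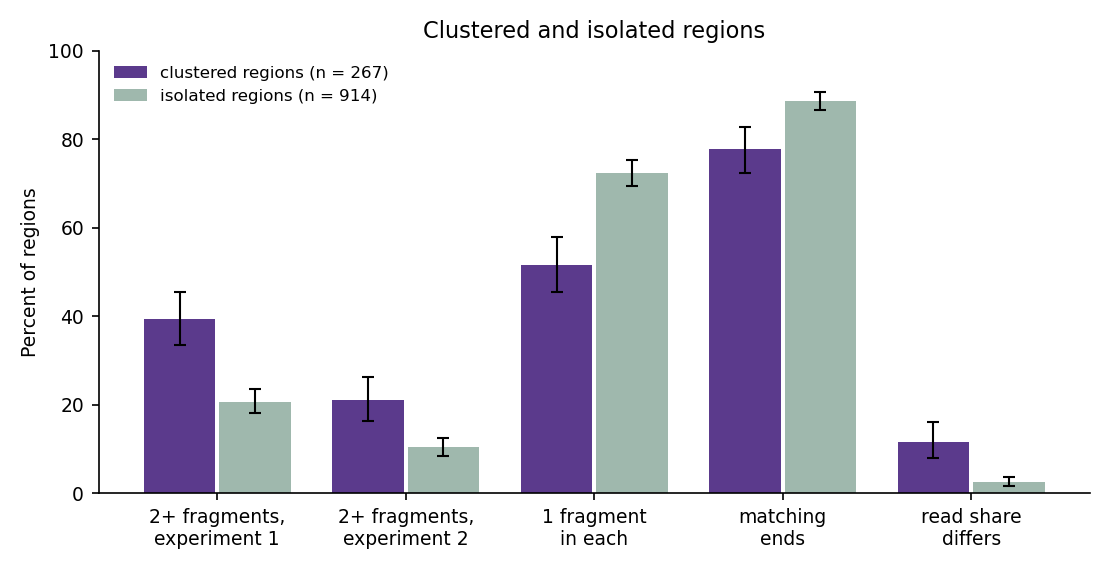
Percent of the 267 clustered and 914 isolated regions (vertical axis) with at least 2 distinct fragments in each experiment, with 1 fragment in each, with matching ends in both experiments, and with a different share of reads. Error bars are 95% exact binomial intervals; at least 2 fragments were found in 39.3% of clustered and 20.7% of isolated regions in experiment 1, and matching ends, with a shift of 1 nt allowed, in 77.9% and 88.7%.

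The third question was how far the experiments matched within loci. Fragments of both experiments were called matching when they shared the 3' end and their 5' ends coincided, or lay 1 nt further downstream in experiment 2. The 1 nt shift in this direction carries most of the matches. Of the pairs of fragments with a shared 3' end, 16.1% of 373 in clustered and 16.6% of 1007 in isolated regions had the same 5' end, and 48.8% and 69.7% had the shift. Matching fragments were found in 208 of 267 clustered regions (77.9%, interval 72.4 to 82.7) and in 811 of 914 isolated ones (88.7%, 86.5 to 90.7). With the same 5' base required, these became 57 (21.3%, 16.6 to 26.8) and 166 (18.2%, 15.7 to 20.8), with the clustered share no longer the lower one. Among regions with 1 fragment in each experiment the shares were 80.4% of 138 (72.8 to 86.7) and 91.2% of 662 (88.8 to 93.3). Every region had matching ends in 57 of the 104 loci and no region had them in 3. As a description across regions, Spearman's rho of reads between experiments was 0.181 over the 267 clustered regions and 0.163 over the 914 isolated ones. Regions share the totals of their libraries and their transcripts. Summed by locus, rho was 0.52 for reads and 0.626 for distinct fragments over the 104 loci. Every region holds at least 1 read in each experiment, so loci with more regions have more reads in both.

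In the list as a whole, 4.57% of regions (54 of 1181) differed in their share of reads between experiments (adjusted p under 0.05 in a two-sided Fisher's exact test, by the Benjamini-Hochberg method over all regions). Among clustered regions 31 of 267 (11.6%) did, 14 higher in experiment 2 (background 2.12%) and 17 in experiment 1 (background 2.46%), and among isolated ones 23 of 914 (2.52%). Whether these shares differ was not tested, and clustered regions held a median of 3 reads in experiment 1 against 2 in isolated ones, where the test can detect less. By distinct fragments the background was 0.423%, and 2 clustered regions passed, both higher in experiment 2. These were the SLCO5A1 region from 70602300 to 70602430 with 11 and 60 fragments (adjusted p = 1.57e-07 by Fisher's exact test), and the region from 1318034 to 1318082 in CLPTM1L, a membrane protein gene on chromosome 5, with 1 and 17 (adjusted p = 0.0124 by Fisher's exact test).

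With reads summed by locus and all 1018 loci tested, the background was 4.13%, and 20 of the 104 clustered loci (19.2%) differed, 10 in each direction (background 2.06% in each), against 22 of 914 single-region loci (2.41%). A clustered locus sums several regions by the joining rule. The median was 6 and 4 reads in experiments 1 and 2, against 2 and 1 in single-region loci, where the test can detect less. Whether the percentages called differ beyond this was not tested. Reads with the same ends may be copies of 1 molecule, and p-values from reads are then too small. Only SLCO5A1 also passed by distinct fragments, with 17 and 64 (adjusted p = 3.9e-06 by Fisher's exact test), where the background was 0.393%. Higher in experiment 2 were SLCO5A1 (log2 ratio of shares 3.34, Fisher's exact test, adjusted p = 1.28e-79), ZC3H7B (5.18, Fisher's exact test, adjusted p = 8.56e-41) and XIST (2.43, Fisher's exact test, adjusted p = 9.21e-38), followed by the unnamed chromosome 17 locus (3.56), SCAP (3.07), the unnamed chromosome 11 locus from 33097472 to 33099553 (3.15, 10 and 133 reads) and CLPTM1L (2.81, 9 and 95 reads). Higher in experiment 1 were IGF2BP1 (-2.72, Fisher's exact test, adjusted p = 1.7e-19), ANKRD30BL (-3.34, Fisher's exact test, adjusted p = 3.62e-19) and a pair of regions on chromosome 2 from 230045490 to 230045627 (-4.09, 34 and 3 reads, Fisher's exact test, adjusted p = 2.36e-09).

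Shares depend on the regions with 50 or more reads in either experiment, 9 clustered and 11 isolated. All 9 clustered ones reached that number in experiment 2 alone, the highest in experiment 1 being 43. With these left out of counts and totals, IGF2BP1 (-1.64, Fisher's exact test, adjusted p = 8.93e-06), ANKRD30BL and the chromosome 2 pair passed, 3 of the 10 loci higher in experiment 1. Of the 10 higher in experiment 2, ZC3H7B, CCND2 and RASL10B, a small GTPase gene, passed in the same direction. XIST turned round to a log2 ratio of -1.73 (Fisher's exact test, adjusted p = 0.0374), with 42 and 9 reads left. NUCKS1 (1.37, Fisher's exact test, adjusted p = 0.00783) and RNA5-8SP6 (2.28, Fisher's exact test, adjusted p = 5.05e-06) then passed as higher in experiment 2. With all regions kept and reads of mapping quality 30 or more, neither passed: NUCKS1 turned to a log2 ratio of -1.16 (25 and 16 reads, Fisher's exact test, adjusted p = 0.185) and RNA5-8SP6 stood at 0.97 (Fisher's exact test, adjusted p = 0.716). Read names fall into 3 groups, and 9 of the 20 loci passed in all 3. They were IGF2BP1, SLCO5A1, ZC3H7B, XIST, SCAP, ANKRD30BL and the unnamed loci on chromosomes 17, 11 and 2 described above. The groups share fragments, since 50.2% and 42.2% of distinct fragments of clustered regions in experiments 1 and 2 occurred in at least 2 groups. Passing in all 3 is therefore not independent support.

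**Figure D4:**
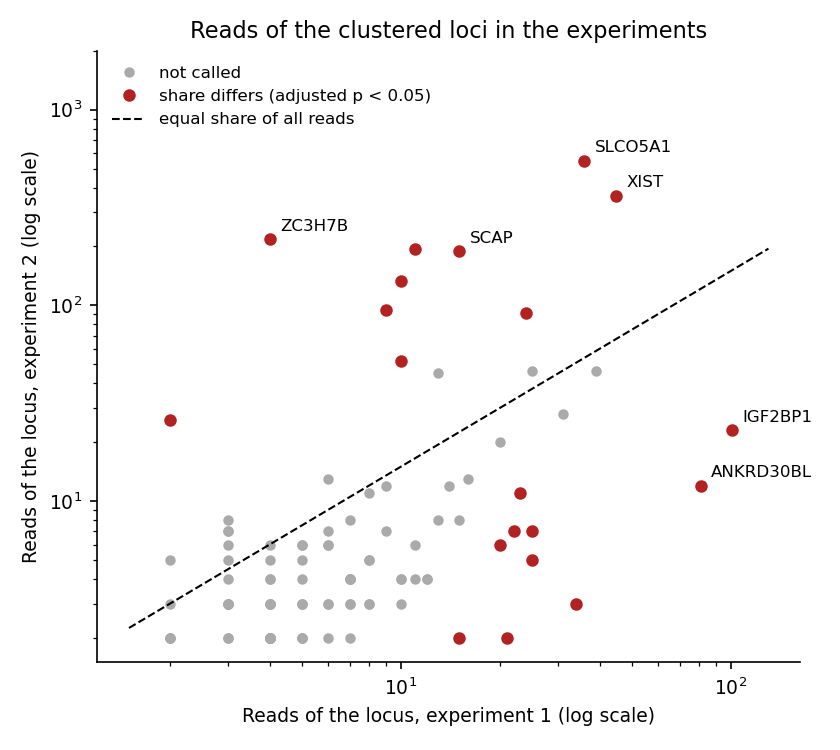
Reads of each of the 104 loci in experiment 2 (vertical axis, log scale) against experiment 1 (horizontal axis, log scale), with loci whose share differed (adjusted p under 0.05) in red. The dashed line marks equal shares of all reads; SLCO5A1 with 36 and 548 reads lies far above it and IGF2BP1 with 101 and 23 far below.

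A last comparison asked whether the regions of a locus held the reads of both experiments in like proportion, which does not depend on other loci. In 15 of the 104 loci (14.4%, here also the background since isolated regions cannot be tested) they did not (exact test of the table of experiment by region, Benjamini-Hochberg adjusted p under 0.05). Of these, 10 also differed in their share. By distinct fragments the exact test called 0 loci, with 5 at an unadjusted p under 0.05. Fragments are far fewer than reads, and the part of repeated reads in the calls was not tested. In XIST, the region from 73064448 to 73064476 held 4.44% of the locus's reads in experiment 1 and 64.8% in experiment 2 (exact test, adjusted p = 6.09e-42). In NUCKS1 the leading region of experiment 2 held 8% and 80.4% (exact test, adjusted p = 2.27e-07), in MAZ 33.3% and 84.8% (exact test, adjusted p = 3.51e-07), and in SCAP 53.3% and 96.3% (exact test, adjusted p = 9.71e-05). At mapping quality 30 or more, 10 of the 15 loci passed. SLCO5A1, with 5 and 260 reads left, and ANKRD30BL, with 17 and 0, could not be tested at that quality. NUCKS1 did not pass, with 25 and 16 reads left (exact test, adjusted p = 0.72). Nor did SOX11, a transcription factor gene, with 8 and 5 reads left (exact test, adjusted p = 0.974). The unnamed chromosome 21 locus from 9827111 to 9827577 did not pass either, with 24 and 36 reads left (exact test, adjusted p = 0.26). MAZ passed with 24 and 41 reads (exact test, adjusted p = 0.00172), but no longer in its share (log2 ratio 0.26 in place of 1.35, Fisher's exact test, adjusted p = 0.968). With all reads kept, NUCKS1, RNA5-8SP6, EEF2, SOX11 and the unnamed chromosome 21 locus (39 and 46 reads) passed the test of balance but not that of shares. IGF2BP1, VAT1, HMGA1, CAPN15, ACVR2B and LARP1 did not pass (exact test, adjusted p = 0.759, 0.763, 0.891, 0.691, 1 and 1), which does not show equal proportions at 14 to 124 reads a locus.

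**Figure D5:**
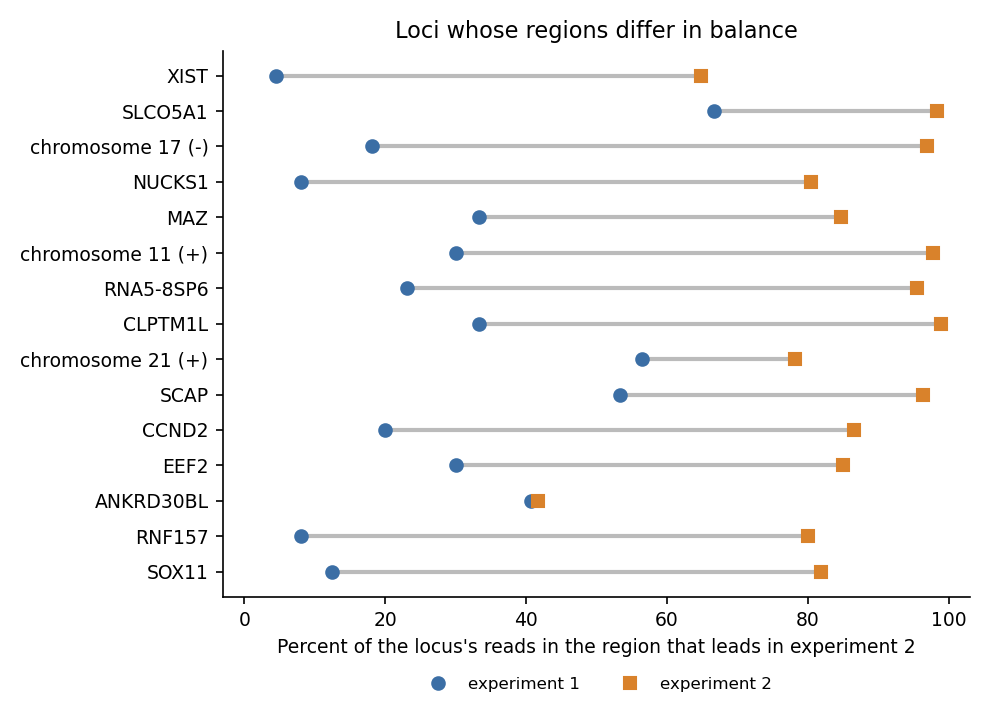
Percent of a locus's reads that lay in its leading region of experiment 2 (horizontal axis), in experiment 1 (circles) and experiment 2 (squares), for the 15 loci that passed the test. The region was chosen for leading in experiment 2, so the direction is partly given. In XIST it held 4.44% and 64.8%. In ANKRD30BL the regions starting at 133012586 and 133014526 tied at 5 reads in experiment 2, and the former is drawn (40.7% and 41.7%). The ANKRD30BL region from 133013126 to 133013174, not drawn, held 43 and 2 of the 81 and 12 reads of that locus.

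Within a locus the region with most reads was the same in both experiments in 35 of 60 loci without ties, and by distinct fragments in 17 of 28. The leading region held a median of 66.7% of the reads of a locus over both experiments. Most loci were pairs, where the leading region cannot hold fewer reads than the other. With so few regions the same one often leads in both experiments by counting alone. The levels that counting alone would give were not computed. In the 78 pairs, the 5' region had more distinct fragments in 20, the 3' region in 18, and 40 had equal numbers.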

How the data were processed

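The submitters' processing notes name build hg19 and the tools Novoalign, bedtools, SAMtools and CASAVA 1.8.2; the sources used here give neither their order nor the rule that called regions. The deposited score of a read, a whole number from 0 to 70, was taken as mapping quality, an inference from its values. Read widths ran from 17 to 91 nt, and the read lists also hold positions, strand and read names. A number in each name was taken as copies of the read, again an inference from its values. Clustered regions held 13.5% of copies in experiment 1 and 56% in experiment 2, and copies were not tested. Each read was placed in a listed region, which took the strand of its reads; same-strand gaps of at most 5000 nt were joined. Shares of reads were tested by Fisher's exact test over all regions or all loci, and balance within loci by an exact test in R 4.3.3, with Benjamini-Hochberg adjustment. Counts were made in Python 3.11.15 with pandas 2.3.3, scipy 1.17.1 and numpy 2.4.6, and figures with matplotlib 3.10.9. The tests were run on simulated data in which reads were drawn independently and planted changes were large. That check does not cover reads that are copies of 1 molecule, nor small changes. Loci described by position are those of 4 or more regions, the 10 with most fragments, the 10 with the smallest adjusted p in each locus test, and the closest and widest neighbours; AGO1, DDX6 and the other examples of gene groups, EEF2, SOX11 and RASL10B among them, were named after their values were seen. Members, lists and tests were chosen with earlier results of these data known. No sequence of hg19 was used, so none is shown.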

Additional observations from a re-analysis of the deposited data

How the results depend on the processing

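Over 6 results and 41 alternatives, 22 counts stayed within 1.5 times the main count and 19 moved further. A joining gap of 1000 nt left 171 regions in 69 loci, with 131 regions of matching ends and 9 loci of different balance, against 267, 104, 208 and 15, because fewer regions are joined. Without replicate 1 or 2, regions merged from the reads of 1 experiment gave 274 to 275 clustered regions in 106 to 107 loci; the lists hold only regions with reads of both, so this tests little. At the same base only, 57 regions had matching ends. By distinct fragments, 2 regions and 1 locus differed in share, and 0 loci in balance, against 31, 20 and 15; the cause was not tested. The read names 06, 07 and without a prefix hold fewer reads each and share many fragments. Within them, 15, 14 and 12 regions and 10, 13 and 10 loci differed in share, and 6, 6 and 5 loci in balance. Without regions of 50 or more reads, 10 regions and 9 loci differed in share, 5 and 5 of them higher in experiment 2. No paired analysis was possible because each read list covers both pull-downs of an experiment. The median of 3 and 1 reads per clustered region limits what can be detected.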
